A study of Mus musculus with 4 samples.

Results

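Integrins and laminins form a receptor and ligand system through which cells hold to the matrix around them. Each integrin on the cell surface is a pair of 1 alpha and 1 beta chain, and the pairing sets what is bound: beta1 joins most alpha chains, whereas beta5, beta6 and beta8 are known to pair only with alphav. A laminin is a trimer of 1 alpha, 1 beta and 1 gamma chain laid down in basement membranes, where alpha3, alpha6 and alpha7 integrins bind it. In the mammary gland, laminins with the alpha3 chain and the hemidesmosome integrin alpha6beta4 are known from the basal surface of the epithelium.

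The genes described are all rows of the deposited expression table with an integrin alpha (Itga), integrin beta (Itgb) or laminin (Lama, Lamb or Lamc) symbol, without the integrin-binding proteins whose symbols begin in the same way. These were 38 of 21090 genes: 18 alpha chains, 9 beta chains and 11 laminin chains. They were measured by RNA-seq in 4 mouse mammary tumor cell lines, 1 library each. By the paper's account the lines go back to 1 tumor, a mammary primary that had spread to the lung. In that mouse activated Pik3ca and dominant-negative Trp53 were switched on by Cre under the MMTV promoter. The controls (n = 2) were the parental line and a line with the lentiviral vector control, which carried no guide against S100a4. The knockouts (n = 2) were a line edited with Cas9 at exon 3 and a line edited at exon 2 of S100a4, a gene for a calcium-binding protein tied to metastasis. The edited and vector lines were selected with puromycin. The title of the exon 2 knockout has the cell number 308 and the other titles have 307, although the paper describes 1 starting line. Whether the number marks a line of another origin is not stated, and such a difference could not be told apart from the edit. Each condition is thus 1 line with 1 library, and nothing says that the 2 libraries of a group were independent cultures of 1 genotype, so p-values measure only the spread between these 4 libraries. Unless stated otherwise, values of the 4 libraries are given in the order parental line, vector control, exon 3 knockout, exon 2 knockout, the controls coming first. The comparison asks how transcript levels of adhesion genes differ between the lines edited in S100a4 and those that were not.

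S100a4 itself was listed at 3576 and 4741 RPKM in the controls and 1136 and 1105 RPKM in the knockouts (adjusted p = 0.0731 in limma). The paper reports truncating mutations in most S100a4 transcripts of the knockout lines and loss of the protein by Western blot. The RNA level is thus no measure of how complete the edit was. RPKM divides the reads of a gene by its length and by the reads of its library. Reads in genes lay between 14706474 and 20553857 per library. Marker lists were checked for other cell types. Of 10 leukocyte markers, 1 had a mean RPKM of at least 1 (Cd68, a lysosomal protein, at 3.36 to 13.2), 4 were at 0 in every library, and Ptprc did not exceed 0.0101. None of 6 endothelial and none of 4 megakaryocyte markers reached a mean of 1. Of 8 epithelial markers, 2 had a mean of at least 1, Krt8 and Krt18, keratins of simple epithelia, whereas Krt5, Krt14, Epcam and Cdh1 stayed under 1. Of 8 mesenchymal markers, 7 had a mean of at least 1, and their summed RPKM was 3944, 2384, 1928 and 2221. In bulk RNA, fewer cells of a kind and less RNA per cell cannot be told apart.

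The levels of the chains, per length, are shown by library, and 22 of the 38 genes had a mean RPKM of at least 1 (10 alpha, 6 beta and 6 laminin chains). The beta side was made up almost wholly of Itgb1 and Itgb5. On the alpha side the 3 highest chains were Itga3 and Itga7, which bind laminin, and Itga5, which binds fibronectin. The laminin transcripts were mainly Lamb1 and Lamc1, with Lama5 and Lama4 as the alpha chains.

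**Figure D1:**
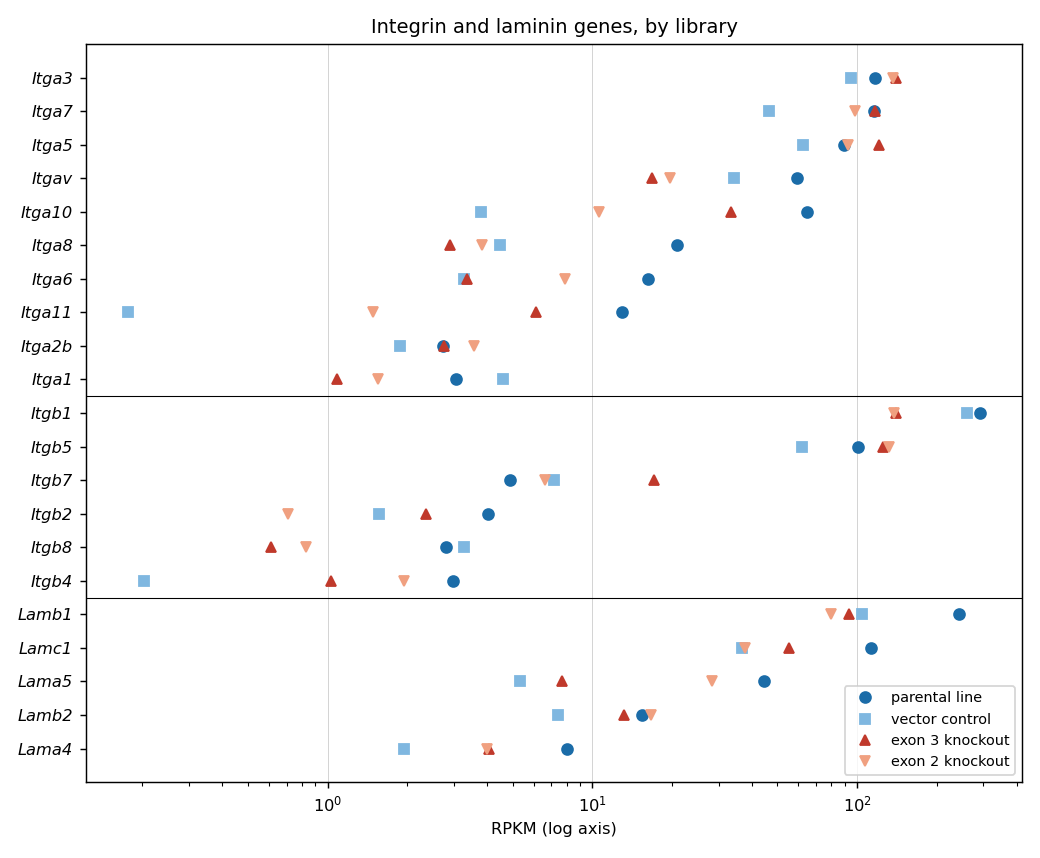
RPKM (log axis) of 21 integrin and laminin genes with mean RPKM of at least 1, with 1 symbol per library and lines between alpha, beta and laminin chains. Blue symbols are the 2 controls and red symbols the 2 knockouts. Itgb1 and Itgav have both knockouts left of both controls, and in Itga10, Itga11, Lama5 and Itgb4 the controls enclose both knockouts.

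The sequences just before the transcription starts of 4 integrin genes are shown because these genes carry the patterns described below: Itgb1 and Itgb5, the abundant beta chains, which had opposite directions in the knockouts, and Itga10 and Itga11, collagen receptor chains with the widest spread between libraries. RefSeq (GRCm38.p6) gave a promoter for 24 of the 38 genes (27 promoters). Each line gives the 150 bases before the start on the plus strand, at chr8:128685504-128685653 for Itgb1, chr16:33829515-33829664 for Itgb5, chr3:96645434-96645583 for Itga10 and chr9:62677705-62677854 for Itga11. Capitals mark matches, on either strand, to the letters TGANTCA (AP-1), GGAATG (TEAD), CACCTG (the E-box of Zeb and Snai factors) and GGGCGG (the GC box of Sp1 and Klf factors), none of which contains another.
Itgb1: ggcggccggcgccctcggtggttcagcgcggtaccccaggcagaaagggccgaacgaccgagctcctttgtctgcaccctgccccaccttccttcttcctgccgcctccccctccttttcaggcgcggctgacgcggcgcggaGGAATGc
Itgb5: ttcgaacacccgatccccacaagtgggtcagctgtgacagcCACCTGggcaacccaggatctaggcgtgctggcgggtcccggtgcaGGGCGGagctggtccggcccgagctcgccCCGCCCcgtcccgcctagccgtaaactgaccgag
Itga10: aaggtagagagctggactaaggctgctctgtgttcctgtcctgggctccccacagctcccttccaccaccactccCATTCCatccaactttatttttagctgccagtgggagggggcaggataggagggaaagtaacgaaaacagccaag
Itga11: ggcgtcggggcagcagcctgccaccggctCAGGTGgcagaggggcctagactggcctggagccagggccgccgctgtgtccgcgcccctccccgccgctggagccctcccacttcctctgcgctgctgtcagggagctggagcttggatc
In these windows Itgb1 and Itga10 held 1 TEAD match each, Itgb5 and Itga11 held 1 E-box match each, and Itgb5 held 2 GC boxes. Over the 250 bases before each start, an AP-1 match was present in 1 of the 27 promoters (Itgax) and in 6.75% of all 32851 promoters, and a TEAD match in 3 (Lamb3, Itga10 and Itgb1) against 12.6%. The E-box was present in 8 of 27 against 17.2%, and the GC box in 9 of 27 against 32.7%. These counts describe letters only.

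Across the 22 tested genes the knockouts differed from the controls in both directions, and the median change of -0.06 was close to that of all 10871 genes tested (-0.08). A change is the difference in mean log2(RPKM + 1), which understates that of genes with low RPKM. In limma with Benjamini-Hochberg adjustment, 0 of 22 genes reached an adjusted p under 0.05, where 0.0184% of all genes did. At an unadjusted p under 0.05, 7 of 22 were lower, with a background of 13.8%, and 0 were higher, with a background of 5.32%. Voom on recovered reads also gave 0 adjusted calls, and 6 of 22 lower at an unadjusted p under 0.05, with 14.1% of all genes. Limma with a robust prior gave 1 adjusted call, Itgav, with 2.62% of all genes called. Leaving out the parental line or the vector control moved these counts. Such a fit keeps 1 control library and leaves out the spread between the controls, so its p-values are not read as calls. Both knockouts lay below both controls in 7 of 22 genes (31.2% of all genes) and above both in 4 of 22 (21.9% of all genes). Only Itgb8 was at least 2-fold lower in all 4 pairs of a knockout with a control (1.73% of all genes), and 0 genes were at least 2-fold higher in all 4 (0.267% of all genes). The Itgb8 count was 0 after quantile normalization and after correction for GC content and length. The count lower at an unadjusted p was above the background share and those of groups that did not overlap were near it, and no difference from the background was tested.

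**Figure D2:**
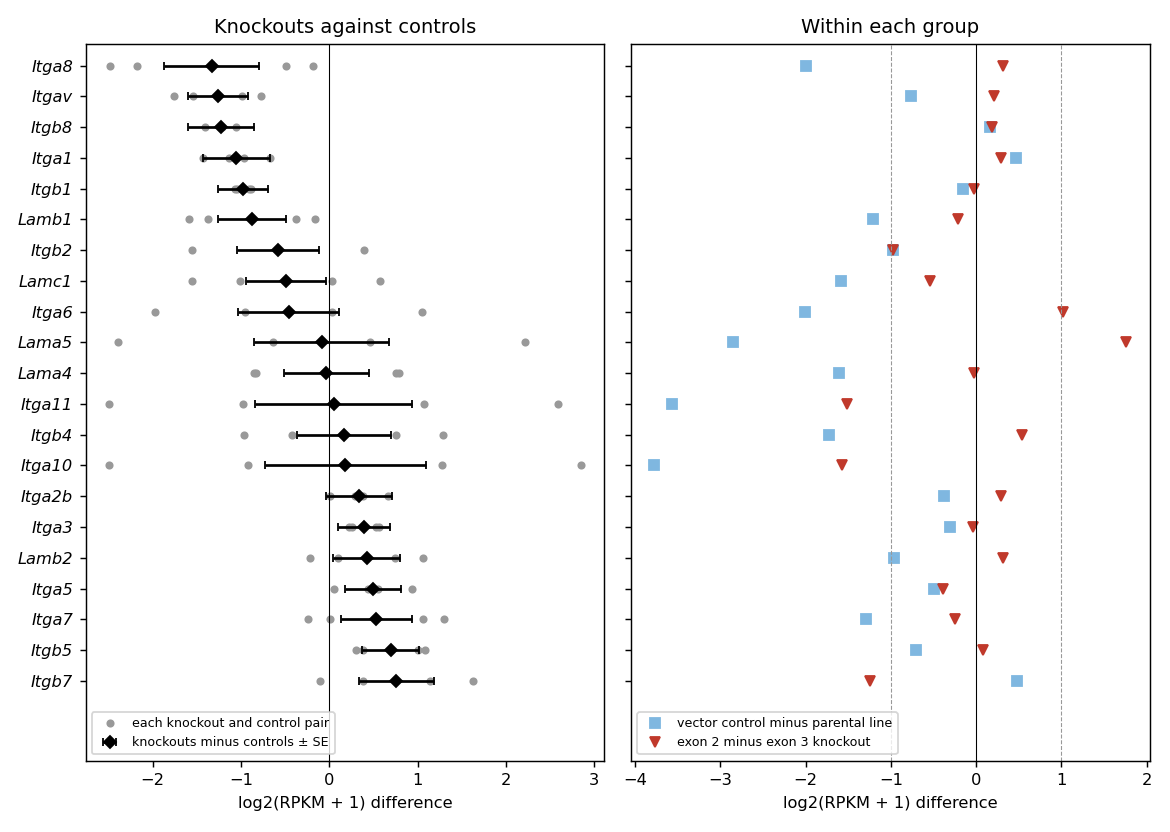
Differences in log2(RPKM + 1) for 21 of the tested genes, ordered by their change. On the left, diamonds are knockouts minus controls with the moderated SE and grey points are the 4 pairs of a knockout and a control. On the right, squares are the vector control minus the parental line and triangles the exon 2 minus the exon 3 knockout, with dashed lines at 2-fold. Itga10, Itga11 and Lama5 have the widest spread of pairs, and their controls are the furthest apart.

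The genes lower in both knockouts included Itgb1, the common beta chain, and Itgav, the RGD-binding alpha chain that is the partner of beta5 and beta8. Itgb1 RPKM was 291 and 261 in the controls and 140 and 138 in the knockouts. Itgb1 lies on chromosome 8 from 128685654 to 128733200 (GRCm38, plus strand), and Itgav on chromosome 2 from 83724397 to 83806916 (plus strand). For Itgb1 both groups were tight and did not overlap, with the knockout mean at 50.5% of the control mean (log2 change -0.98, SE 0.287, adjusted p = 0.138 in limma). Itgav RPKM was 59.1 and 34.3 in the controls and 16.8 and 19.7 in the knockouts. Its groups were also apart, with the parental line the highest (log2 change -1.26, SE 0.341, adjusted p = 0.128). With a robust prior in limma, Itgav passed an adjusted p of 0.05 (0.0396) and Itgb1 did not (0.0800). Without the parental line the log2 change was -0.88 for Itgav and -0.90 for Itgb1, and without the vector control it was -1.65 and -1.06.

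Itgb8, a chain whose pair with alphav binds latent TGF-beta, was at 2.79 and 3.26 RPKM in the controls and at 0.610 and 0.831 RPKM in the knockouts. These rest on 201 and 191 reads against 33 and 43, and the 95% Wilson intervals of the controls (2.43 to 3.21 and 2.83 to 3.76) did not reach those of the knockouts (0.435 to 0.857 and 0.617 to 1.12). Such intervals cover counting error only. Itgb8 lies on the minus strand of chromosome 12 from 119158022 to 119238802. The knockout mean was 23.8% of the control mean, and the log2 change was -1.23 (SE 0.375, adjusted p = 0.146). Itga1, a collagen-binding chain that pairs with beta1, was at 3.06 and 4.62 RPKM in the controls and 1.08 and 1.55 RPKM in the knockouts. Here the vector control was the highest library and the groups did not overlap (log2 change -1.05, SE 0.378, adjusted p = 0.188). Its neighbour on chromosome 13, Itga2, another collagen receptor chain, fell under the filter at 0.760, 0.223, 0.133 and 0.0503 RPKM (84, 20, 11 and 4 reads).

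Lamc1, the common gamma chain of laminins, was at 113, 36.8, 55.2 and 37.8 RPKM, with the parental line above the rest and the vector control level with the exon 2 knockout. The study drew Itgb1 and Itgb8 from these same libraries, so their values here are not independent evidence of a direction.

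Itga8 and Lamb1 also had both knockouts below both controls, though mainly by the parental line. Itga8, an RGD-binding partner of beta1, was at 20.8, 4.48, 2.90 and 3.84 RPKM. The vector control lay closer to the knockouts than to the parental line (log2 change -1.33, SE 0.538, adjusted p = 0.220). Lamb1, the common beta chain of laminins, was at 242, 104, 93.1 and 79.9 RPKM (log2 change -0.87, SE 0.386, adjusted p = 0.250). Without the parental line the log2 change was -0.34 for Itga8 and -0.27 for Lamb1, and without the vector control it was -2.33 and -1.48.

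The changes moved with the base composition of the coding sequence. GC content was 42.6% for Itgb1, 45.5% for Itgb8, 46.1% for Itga1, 48.5% for Itga8, 49.2% for Itgav and 52.5% for Lamb1. The 7 genes with both knockouts below both controls had a median GC of 48.5%, the 4 genes with both above had 57.3%, and all genes tested had 53.0%. Across the 10772 tested genes with a GC value the change correlated with GC at r = 0.458, and across the 22 genes at 0.756. Genes share the 4 libraries, so these r describe the libraries and carry no test. The 950 genes within 2 percentage points of the GC of Itgb1 had a median change of -0.69, against -0.98 for Itgb1. For Itgb8 the 1546 such genes had a median of -0.55 and for Itga1 the 1634 such genes had -0.51. For Itga8, Itgav and Lamb1 the medians of such genes were -0.31, -0.25 and -0.02, against changes of -1.33, -1.26 and -0.87. After each library was corrected for GC and length, the change was -0.17 for Itgb1, -0.37 for Itga1, -0.44 for Lamb1 and -0.57 for Itgb8. It was -0.80 for Itga8 and -0.78 for Itgav. In that fit 2 of the 22 genes were lower at an unadjusted p under 0.05, with 6.56% of all genes. The part of base composition in the result was not tested otherwise.

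**Figure D3:**
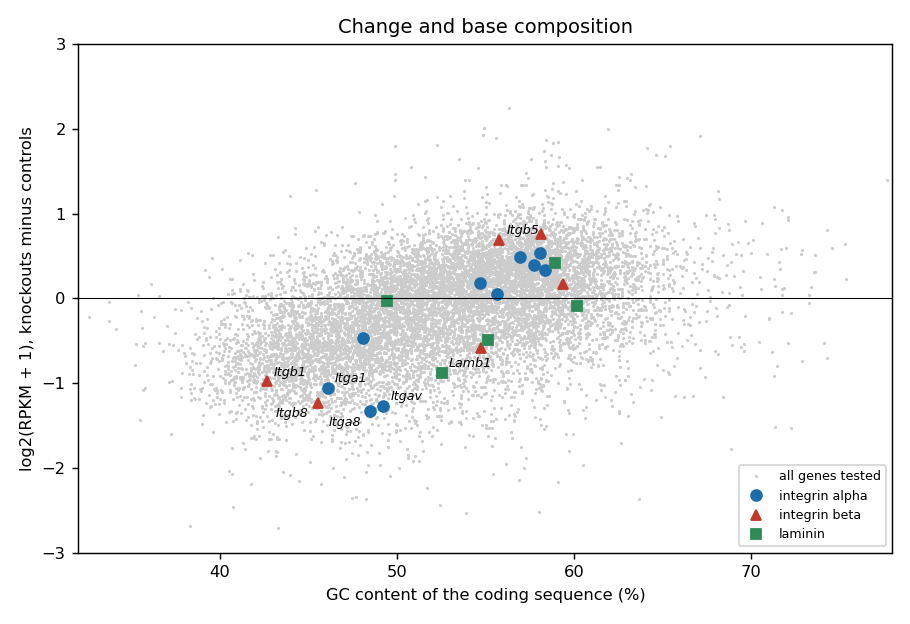
Knockouts minus controls in log2(RPKM + 1) against the GC content of the coding sequence, for all tested genes (grey, with 6 genes outside the plotted range of change) and for 21 alpha, beta and laminin chains (coloured). The named genes lower in both knockouts lie at 42.6% to 52.5% GC, and the grey points fall toward low GC.

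Several chains were on the higher side in both knockouts, led by Itgb5, the vitronectin receptor chain that pairs with alphav. Itgb5 RPKM was 101 and 61.8 in the controls and 125 and 132 in the knockouts. The knockouts did not overlap the controls, yet the parental line was nearer to them than to the vector control (log2 change 0.69, SE 0.323, adjusted p = 0.269 in limma). Without the parental line the log2 change was 1.04, and without the vector control it was 0.34. Itga3, the laminin receptor chain of epithelia, was at 117, 94.8, 141 and 137 RPKM, the knockouts again above both controls (log2 change 0.39, SE 0.293, adjusted p = 0.474). Itga5, the fibronectin receptor chain, was at 88.9, 62.7, 121 and 92.1 RPKM. The exon 2 knockout only just exceeded the parental line there (log2 change 0.49, SE 0.316, adjusted p = 0.408). Itga2b, the platelet chain that pairs with beta3, was at 2.74, 1.88, 2.75 and 3.57 RPKM, the exon 3 knockout level with the parental line (log2 change 0.34, SE 0.369, adjusted p = 0.634), with megakaryocyte markers at a summed RPKM of 0.162 to 0.661. The GC and length correction left these changes positive (0.73 for Itgb5, 0.44 for Itga3, 0.56 for Itga5 and 0.36 for Itga2b).

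Ratios between chains do not depend on the total of the library. Of 11 ratios computed, 6 had groups that did not overlap and 5 had groups that did, such as Itga5 over Itga3 (0.759 and 0.661 in the controls, 0.858 and 0.671 in the knockouts) and Lama5 over Lama4 (5.55 and 2.73 against 1.88 and 7.09). Among all single genes tested, 31.2% had both knockouts below both controls and 21.9% above both. The share over other pairs of genes was not computed, so the count of 6 is no result about these chains. Itgb1 over Itgb5 was 2.88 and 4.22 in the controls but 1.12 and 1.05 in the knockouts. Itgb1 made up 71.5% and 77.7% of the summed RPKM of beta chains in the controls and 48.8% and 49.3% in the knockouts, and Itgb5 24.8% and 18.4% against 43.5% and 47.0%. The knockouts thus held nearly equal transcript levels of these beta chains. Itgb1 over Itga3 went from 2.48 and 2.75 to 0.997 and 1.01. Itgav over Itga5, 2 alpha chains that both bind fibronectin, was 0.665 and 0.547 in the controls and 0.139 and 0.214 in the knockouts. Itgav over Itgb5, partners in 1 receptor, was 0.585 and 0.555 against 0.134 and 0.149. An exact permutation test of 4 libraries cannot give a two-sided p below 0.333, so no ratio could pass 0.05. The chains of a ratio also differ in GC content (42.6% for Itgb1, 55.8% for Itgb5, 49.2% for Itgav and 56.9% for Itga5), and the ratios were not corrected for it.

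**Figure D4:**
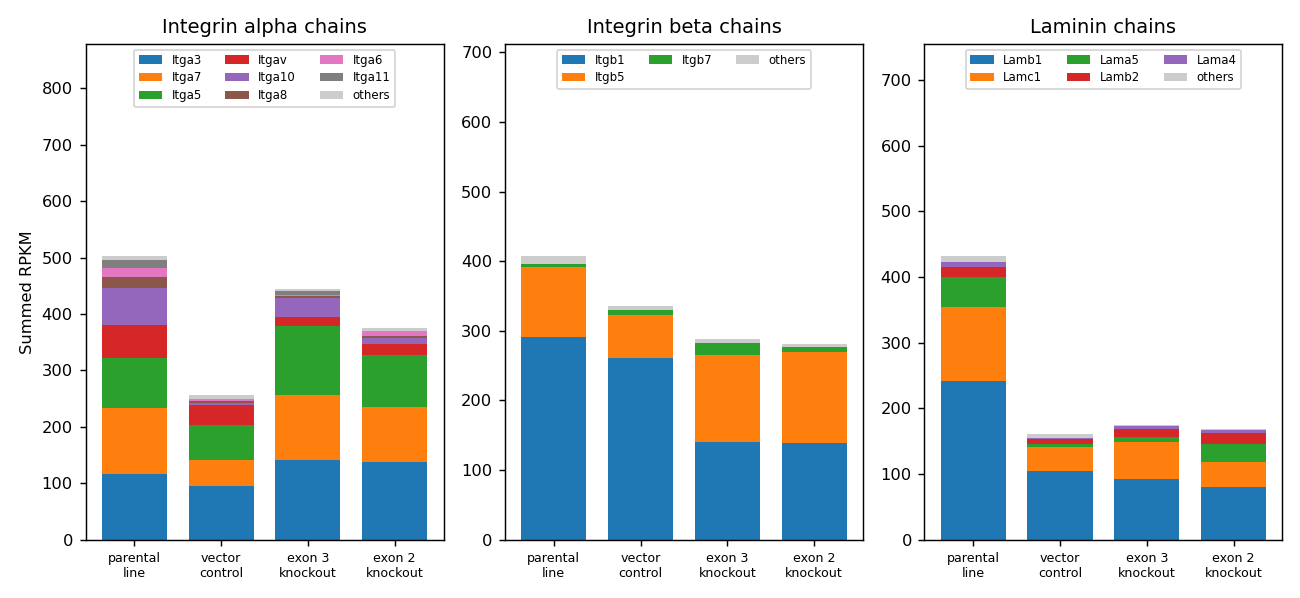
Summed RPKM of alpha chains, beta chains and laminin chains in each library, stacked by gene (bars start at 0, 1 library per bar). Itgb1 (lower segment of the beta bars) shrinks from 291 and 261 in the controls to 140 and 138 in the knockouts, and the laminin sum of the parental line, 432, stands above the other 3.

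The sums over each class varied less between groups than Itgb1 over Itgb5 or Itga3 and Itgav over Itgb5 or Itga5. They varied more than Itga5 over Itga3 (log2 difference 0.10) and Lama5 over Lama4 (log2 difference -0.09). Beta chains summed to 407 and 336 RPKM in the controls and 288 and 280 RPKM in the knockouts (log2 difference -0.38, exact permutation p = 0.333, two-sided). Alpha chains summed to 502, 257, 445 and 376 RPKM, and the controls enclosed both knockouts (log2 difference 0.19, exact permutation p = 1). Laminin chains summed to 432, 161, 176 and 169 RPKM. The parental line stood alone (log2 difference -0.61, exact permutation p = 1), and without it the difference was 0.09. The summed beta chains other than beta1 that pair with alphav (Itgb3, Itgb5, Itgb6 and Itgb8) were at 104 and 66.1 RPKM in the controls and 127 and 133 RPKM in the knockouts (log2 difference 0.64, exact permutation p = 0.333), nearly all of it Itgb5.

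Within the laminins, Lamb1 held 94.0% and 93.3% of the beta chain RPKM in the controls and 87.6% and 82.7% in the knockouts. Lamb2, the other beta chain of basement membranes, was at 15.4, 7.42, 13.1 and 16.6 RPKM. Only the vector control stood low there (log2 change 0.42, SE 0.377, adjusted p = 0.555). The ratio of Lamb1 to Lamb2 was 15.7 and 14.0 in the controls and 7.09 and 4.81 in the knockouts. Lama5, an alpha chain of mature epithelial basement membranes, made up 60.3% to 86.3% of the alpha chain RPKM, and Lama4, known from mesenchyme and vessels, 12.2% to 32.05%. The summed laminin alpha chains (57, 7.58, 12.8 and 32.9 RPKM) were below the beta chains (258, 112, 106 and 96.6 RPKM) in each library.

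On the log2(RPKM + 1) scale, the largest differences between libraries among the tested genes were those of Itga10 and Itga11 between the 2 controls. Of the 22 genes, 10 were at least 2-fold lower in the vector control than in the parental line, where 5.19% of all genes were, and 0 were at least 2-fold higher, where 3.34% were. The median difference was -0.97 for the 22 genes and 0.16 for all genes tested. With 1 library each there is no test of these differences. The collagen receptor chain Itga10 was at 64.5 and 3.79 RPKM in the controls, with 33.5 and 10.6 RPKM in the knockouts. Its relative Itga11, known from fibroblasts, was at 13.0, 0.177, 6.10 and 1.48 RPKM, with 1447 reads for the parental line and 16 for the vector control. Both chains ran in the same order of libraries: parental line, exon 3 knockout, exon 2 knockout, vector control. Summed collagen-binding alpha chains were 81.3, 8.80, 40.8 and 13.7 RPKM. Col1a1, the fibrillar collagen chain among the mesenchymal markers, was at 670, 6.93, 54.3 and 24.2 RPKM, in that same order of libraries. Of the 8 mesenchymal markers 3 had this order (Col1a1, Fn1 and Pdgfrb) and 5 did not, among them Col3a1 at 133, 57.9, 15.2 and 23.9 RPKM and Vim at 2418, 2060, 1362 and 1721 RPKM. Among 8 epithelial markers 1, Krt18, had this order too, at 60.2, 6.10, 27.3 and 19.05 RPKM. The share of all genes with this order was not computed. The part of these markers in the result was not tested.

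Several laminin and laminin receptor chains also had a gap between controls. Of the 6 tested laminins, 4 were at least 2-fold lower in the vector control than in the parental line (5.19% of all genes). The laminin receptor chain Itga3 differed little there (117 and 94.8 RPKM). Lama5 was at 44.6, 5.33, 7.69 and 28.4 RPKM, high in the parental line and the exon 2 knockout. Lama4 was at 8.02, 1.95, 4.09 and 4.00 RPKM, with the knockouts alike and between the controls. Lama1, the embryonic alpha chain, was under the filter at 3.07, 0.00425, 0.382 and 0.207 RPKM, with 889 reads in the parental line and 1 read in the vector control. Itga6, a laminin receptor chain of basal epithelium, was at 16.2, 3.27, 3.37 and 7.85 RPKM, and Itgb4, its hemidesmosome partner, at 2.96, 0.203, 1.03 and 1.95 RPKM. For both, the parental line was highest and the exon 2 knockout second. Itga7, a laminin receptor chain of muscle, was at 116, 46.6, 116 and 97.9 RPKM, so only the vector control stood apart (log2 change 0.53, SE 0.399, adjusted p = 0.477). Without the parental line that change was 1.18, and without the vector control it was -0.11.

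For these genes the comparison of knockouts with controls turned on which control was used. Without the parental line the log2 change was 2.07 for Itga10, 1.84 for Itga11 and 1.34 for Lama5. Without the vector control it was -1.71, -1.74 and -1.51, so the sign of each followed the control that was kept. With both controls in the fit the changes were 0.18 (SE 0.911), 0.05 (SE 0.888) and -0.09 (SE 0.768). Lamc1 had a log2 change of -0.49 (SE 0.457, adjusted p = 0.570), with 0.30 when the parental line was left out and -1.28 when the vector control was. Itga6 (-0.46, SE 0.576), Itgb4 (0.16, SE 0.535) and Lama4 (-0.03, SE 0.481) had adjusted p between 0.683 and 0.981.

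The 2 knockouts differed by at least 2-fold in fewer of these genes than the controls did. Of the 22 genes, 3 were at least 2-fold lower in the exon 2 than in the exon 3 knockout (Itga10, Itga11 and Itgb7), against 2.43% of all genes, and 2 were at least 2-fold higher (Itga6 and Lama5), against 2.57% of all genes. Among the 22 tested genes 0 had 1 knockout above both controls and the other below both, a pattern found in 857 of the 10871 genes tested. Itgb3, under the filter, had this pattern. For Itgb1 the knockouts differed by 0.02 on the log2 scale, and for Itgav by 0.22.

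Leukocyte integrins were near the floor, apart from 2 beta chains without their partners. Itgb7, which pairs with alpha4 or alphaE in lymphocytes, was at 4.87, 7.19, 17.1 and 6.62 RPKM. The exon 3 knockout alone was high (log2 change 0.76, SE 0.427, adjusted p = 0.351). Its partners were not at comparable levels: Itga4 was at 0 in every library, and Itgae lay between 0.107 and 0.287 RPKM. Itgb2, the beta chain of the leukocyte adhesion receptors, was at 4.03, 1.57, 2.36 and 0.712 RPKM (log2 change -0.58, SE 0.466, adjusted p = 0.508). The partners of beta2 held at most 3 reads in any library (Itgal), with 1 read or none for Itgam and Itgax and none for Itgad. The defining leukocyte marker Ptprc had 1 read in the 4 libraries together.

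The other genes under the filter were low in each library. Itgb3, the beta chain of the vitronectin and fibrinogen receptors, was at 0.497, 1.02, 1.20 and 0.187 RPKM, with 10 reads in the exon 2 knockout. Lama3, an epithelial laminin alpha chain, was at 1.32, 0.266, 0.591 and 0.275 RPKM, and Lamb3, a beta chain found with it, stayed between 0.0221 and 0.0630 RPKM. Itga9 was at 0 to 0.164, Lama2 at 0.00453 to 0.0377 and Lamc3 at 0 to 0.0332 RPKM. Itgb6, the epithelial partner of alphav, and Itgb2l were at 0 in all 4 libraries, as were Itga4 and Itgad. A count of 0 says only that no read was seen at this depth.

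Some chains share coding bases with other annotated genes, and whether counting used strand is not stated. Itga10 shares 1739 of 3501 coding bases with Gm42957 and Itga1 shares 295 of 3537 with Gm49395, both on the same strand. Itgam shares 3390 of 3599 with Gm49368. Antisense RNAs overlap coding parts of Itga8 (232 bases) and Lama3 (171 bases), and a long noncoding RNA that of Itgb4 (537 bases). Reads of such genes could not be told apart here.

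Genes that work with integrins were taken from 4 lists. Of 36 adaptor and focal adhesion genes that join the integrin tail to actin, 31 were tested, with 4 lower (background 13.8%) and 1 higher (background 5.32%) at an unadjusted p under 0.05 and 0 at an adjusted p under 0.05 in limma. Their median change was -0.09, against -0.08 for all genes. Both knockouts lay below both controls in 9 of the 31 (31.2% of all genes) and above both in 5 (21.9% of all genes). The 4 lower at an unadjusted p under 0.05 were Fermt2 (kindlin-2, which activates integrins), Lims1, Tgfb1i1 and Tns3. Fermt2 was at 18.3, 33.2, 9.80 and 14.4 RPKM (log2 change -0.99, SE 0.367, adjusted p = 0.194). Lims1, part of the complex around integrin-linked kinase, was at 27.6, 46.0, 14.8 and 24.5 RPKM (adjusted p = 0.234), and its paralog Lims2 ran the other way at 0.679, 1.18, 2.88 and 4.98 RPKM (log2 change 1.33, SE 0.395, adjusted p = 0.139). Tns3 was at 69.3, 60.4, 33.6 and 41.8 RPKM and Tgfb1i1 at 19.2, 19.5, 9.56 and 13.2 RPKM. After the GC and length correction the changes were -0.49 for Fermt2, -0.63 for Lims1, -0.55 for Tns3, -0.89 for Tgfb1i1 and 1.21 for Lims2. Fermt2 and Lims1 were named after their values were seen. Tln1, the talin that binds beta tails, was at 66.7, 61.0, 61.0 and 58.5 RPKM, and Ilk at 98.4, 150, 115 and 142 RPKM, neither with groups apart.

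Of 19 basement membrane and hemidesmosome genes, 15 were tested, 9 of them at least 2-fold lower in the vector control than in the parental line (5.19% of all genes), and 1 was lower in the knockouts at an unadjusted p under 0.05 (13.8% of all genes). This was Dst, a plakin that links alpha6beta4 to keratin, at 20.2, 12.6, 2.82 and 7.75 RPKM (log2 change -1.56, SE 0.428, adjusted p = 0.130, and -0.62 after the GC and length correction). The laminin-binding nidogen gene Nid1 was at 11.6, 7.86, 0.0798 and 9.58 RPKM, with only the exon 3 knockout low (adjusted p = 0.274). Hspg2 (perlecan) was at 121 RPKM in the parental line and 40.6 to 49.5 in the other 3, the pattern of the laminin sum.

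Of 25 other ligands, 13 were tested, with 3 lower at an unadjusted p under 0.05 (13.8% of all genes), and 2 of these were at least 2-fold lower in all 4 pairs (1.73% of all genes). They were Edil3, a secreted ligand of alphav integrins, at 9.56 and 7.50 RPKM in the controls and 1.004 and 1.17 in the knockouts (log2 change -2.18, SE 0.354, adjusted p = 0.0731), and Vcam1, a ligand of alpha4 integrins, at 114 and 81.9 against 28.0 and 30.7 (log2 change -1.69, SE 0.308, adjusted p = 0.091). The third was Npnt, a ligand of alpha8beta1, at 5.79 and 2.28 against 1.19 and 1.39 RPKM. The GC and length correction gave -1.68 for Edil3, -1.12 for Vcam1 and -0.96 for Npnt. Edil3 and Vcam1 were named for the size of their fall, so sharing the direction of Itgav is no evidence of a link. By sign, 8 of the 13 ligands fell and 5 rose. The receptor chain of Vcam1, Itga4, was at 0. Fibronectin (Fn1), the ligand of alpha5beta1, was at 606, 164, 414 and 340 RPKM, with the vector control lowest.

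Of 13 membrane partners of integrins, 11 were tested, with 1 lower (13.8% of all genes) and 1 higher (5.32% of all genes) at an unadjusted p under 0.05. Both knockouts lay above both controls in 4 of the 11 (21.9% of all genes) and below both in 1 (31.2% of all genes). Slc3a2 (CD98 heavy chain, which binds beta1 and beta3 tails) was at 296 and 306 RPKM in the controls and 619 and 536 in the knockouts (log2 change 0.93, SE 0.291, adjusted p = 0.154). Cav1 (caveolin-1) was at 53.8 and 100 against 24.3 and 47.3 RPKM (log2 change -1.09, SE 0.397, adjusted p = 0.190). The laminin receptor tetraspanin Cd151 was at 130, 162, 164 and 186 RPKM (log2 change 0.27, SE 0.296).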

How the data were processed

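RNA-seq of 4 mouse mammary tumor cell lines was deposited by the authors as RPKM values, with 1 column per library. The submitters' notes name CASAVA 1.8, GSNAP and GRCm38, and the gene model and counting rule are not given in the sources used here. The labels name a stranded total RNA kit and the methods an RNA preparation kit without that word. All columns were matched to libraries by label, with 0 left unmatched. Groups came from the sample titles. Replicate numbers follow deposition order and pair nothing.

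Integrin and laminin genes were found by symbol. The members and gene lists were chosen with earlier results of these data known. Values were analysed as log2(RPKM + 1). The 10871 genes whose mean RPKM was 1 or more were compared by limma 3.58.1 (R 4.3.3) with an intensity trend, 2 knockouts against 2 controls, with p-values adjusted over all tested genes (Benjamini-Hochberg, threshold 0.05). Adjusted p-values are from this fit unless another is named. The test was checked on simulated data. Whole reads were recovered from RPKM ratios between libraries, with 100% of genes above 0 whole within 0.001 reads. The absolute scale of reads rests on GENCODE M21 coding lengths, which 60.7% of the lengths behind the values equal. GC content is that of the coding sequence. The correction for GC and length was a loess fit (span 0.5) in each library. Of the tested integrin and laminin genes, 21 were named, and 1 is not reported here and is included in counts, medians and sums alone. Taken over the other lists together, most genes named were among those furthest apart in their closest pair of a knockout and a control, or had an unadjusted p under 0.05. Not every gene furthest apart in that way is named. Tln1, Ilk, Nid1, Hspg2, Fn1 and Cd151 met neither rule and were named outside it. Alternatives were a pseudocount of 0.1, median ratio and quantile scaling, leaving out the filter, raising it to a mean of 5 RPKM, the GC and length correction, other limma priors, voom, 3-fold in place of 2-fold, and leaving out each library.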

Additional observations from a re-analysis of the deposited data

How the results depend on the processing

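With 1 library per line, 2 lines a group and no batch labels, the edit and differences between lines cannot be told apart. Depth limits genes with few reads, such as Itgb8. The median change of all genes was -0.08 in the analysis as reported, 0.01 after median ratio scaling and 0.04 after quantile normalization. Leaving out a library leaves 1 in its group, which limma then assumes to vary like the other group. No paired analysis was possible because the labels give no replicate numbers.

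Among the 22 integrin and laminin genes, the count with an adjusted p under 0.05 in limma was 0 in the main test, 1 with a robust prior, 0 to 8 on leaving out a library, and 0 under the other alternatives run. The count lower at an unadjusted p under 0.05 (7) became 4 after quantile normalization, 4 with a filter at mean RPKM of 5 and 2 under correction for GC and length, and was 1 to 12 on leaving out a library (1 without the exon 3 knockout, 12 without the vector control). The count higher (0) became 1 after median ratio scaling, 1 after the GC and length correction and 1 with a robust prior, and was 0 to 8 on leaving out a library (8 without the parental line). Genes at least 2-fold lower in all pairs (1) numbered 2 with a pseudocount of 0.1, 0 after quantile normalization, 0 after the GC and length correction, 0 at 3-fold, 0 with a filter at mean RPKM of 5, which leaves out Itgb8, and 1 to 6 on leaving out a library. Genes at least 2-fold higher in all pairs (0) numbered 0 to 4 on leaving out a library. Between the knockouts, the genes lower in exon 2 (3) numbered 0 at 3-fold, and those higher (2) numbered 1 at 3-fold and 1 after median ratio scaling. The log2 difference of summed alpha chains (0.19) ranged from -0.29 (without the vector control) to 0.67 on leaving out a library, and that of laminin chains (-0.61) from -1.32 to 0.094 (without the parental line).

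A change of sign was seen in 9 genes. After the GC and length correction the log2 change was 0.10 for Itga6, 0.58 for Lama4 and 0.22 for Lama5, and after quantile normalization 0.27 for Lama4 and 0.061 for Lama5. Lama4 was also at 0.022 with a pseudocount of 0.1, 0.032 after median ratio scaling and 0.0074 with voom. On leaving out each library the change ranged from -1.47 to 0.54 for Itga6, -0.11 to 1.18 for Itga7, -1.71 to 2.07 for Itga10, -1.74 to 1.84 for Itga11, -0.70 to 1.02 for Itgb4, -0.84 to 0.77 for Lama4, -1.51 to 1.34 for Lama5, -0.060 to 0.90 for Lamb2 and -1.28 to 0.30 for Lamc1. The cause was not tested. The other 13 genes kept their direction under every alternative run, with log2 changes from -1.65 to -0.78 for Itgav, -1.16 to -0.17 for Itgb1, -2.07 to -0.57 for Itgb8 and 0.34 to 1.04 for Itgb5.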
